A study of Mus musculus with 2 samples.

Results

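The eosinophil-associated ribonucleases (Ear) are small secreted enzymes of the RNase A family, and Ear1, Ear2, Ear6, Ear10 and Rnase2a were followed here by their symbols in the gene lists of a single cell RNA sequencing series of mouse lung. They are 5 of 31053 measured genes. For each of 3 treatments, DCs and macrophages were sorted from the combined lungs of several female C57BL/6J mice and marked with a hashtag antibody. The control mice received the adjuvant Alum without allergen, the asthma mice received ovalbumin (OVA) with Alum followed by intranasal OVA, and the tolerance mice inhaled OVA before the asthma protocol. The tagged cells were mixed and loaded on 2 lanes of the 10x platform. A lane is a technical repeat and a treatment has a single pool, so treatments could not be tested against each other. The treatment values below compare pools, and their intervals cover counting error only.

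RNase A enzymes cleave RNA, and the members named after eosinophils were first known as cationic proteins stored in eosinophil granules, with roles in host defence. In the mouse this branch of the family has expanded by repeated duplication into a cluster of closely related genes. Alveolar macrophages, the resident phagocytes of the airspace, also carry Ear transcripts, and Ear2 is often listed among genes of nonclassical (patrolling) monocytes.

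All 5 genes lie on chromosome 14 of mm10 (GENCODE vM21 annotation) in 2 groups. The first holds Ear1 (chr14:43818765-43875517, minus strand), Ear10 (chr14:43922720-43923559, minus strand) and Ear2 (chr14:44102654-44103534, plus strand) within 285 kb. The span of Ear1 comes from a long transcript, and the shorter transcript used here ends at base 43819639, where its start of transcription lies. The second holds Rnase2a (chr14:51255262-51256112, minus strand) and Ear6 (chr14:51853699-51854643, plus strand), 598 kb apart and 7.15 Mb beyond Ear2. In the transcript used here each gene has 2 exons, and the whole coding sequence of 465 or 468 bases stands in exon 2. The transcripts of Ear1 and Ear2 were identical at 96.9% of aligned bases, those of Ear2 and Ear10 at 94.7%, those of Ear2 and Ear6 at 89.3%, and those of Ear2 and Rnase2a at 83.3%.

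The sequence before the start of transcription was as alike as the transcripts, and it is shown for the 3 members on which the results turn because Ear1 and Ear2 are nearly identical there while their levels were not alike across classes and pools. The 250 bases before the start are given 5′ to 3′ on the strand of the gene (RefSeq, GRCm38.p6). Capitals in the windows of Ear1 and Rnase2a mark bases that differ from Ear2 or are absent from it within the aligned stretch of a pairwise alignment. The last bases of both windows lie beyond the end of the Ear2 window. They have no counterpart there and stand in lower case.
Ear2 (chr14:44102404-44102653, plus strand): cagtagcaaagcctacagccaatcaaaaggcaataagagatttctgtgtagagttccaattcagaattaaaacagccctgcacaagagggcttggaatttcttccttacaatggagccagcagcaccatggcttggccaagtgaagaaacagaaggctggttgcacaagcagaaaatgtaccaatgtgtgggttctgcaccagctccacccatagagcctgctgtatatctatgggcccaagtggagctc
Ear1 (chr14:43819640-43819889, minus strand): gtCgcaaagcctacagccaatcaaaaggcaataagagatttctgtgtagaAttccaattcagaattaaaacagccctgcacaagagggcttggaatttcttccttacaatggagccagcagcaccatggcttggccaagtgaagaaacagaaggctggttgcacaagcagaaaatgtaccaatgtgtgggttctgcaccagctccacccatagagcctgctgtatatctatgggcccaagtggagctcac
Rnase2a (chr14:51256113-51256362, minus strand): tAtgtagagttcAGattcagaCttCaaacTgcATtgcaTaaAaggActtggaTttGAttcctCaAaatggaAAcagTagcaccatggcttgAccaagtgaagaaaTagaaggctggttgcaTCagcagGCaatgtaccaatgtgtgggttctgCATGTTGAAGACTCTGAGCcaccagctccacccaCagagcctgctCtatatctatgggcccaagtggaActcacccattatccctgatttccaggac
The windows of Ear1 and Ear2 differed at 2 bases, at positions -248 and -200 from the start of Ear1, and were identical at 99.2% of 248 aligned bases. The window of Rnase2a was identical to that of Ear2 at 86.4% of 206 aligned bases and carried 19 inserted bases in a single run. The windows of Ear10 and Ear6 were identical to that of Ear2 at 94.3% and 93.0%. Searched on both strands, the TATA box TATAAA had no match in the 5 windows, while 12.4% of 32851 promoters of the same length held it. The AP-1 motif TGACTCA had none either (4.46% of promoters), nor did the STAT6 motif TTCNNNNGAA (5.85%). The core of PU.1 sites, GAGGAA (23.3% of promoters), matched once, in Rnase2a. A PPAR half-site, AGGTCA (14.0%), matched once, in Ear6.

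This likeness bears on the counts themselves. Cell Ranger assigns a read to a gene only when it does not match another gene equally well. Of the 445 stretches of 56 bases, the length of the cDNA read, in the last 500 bases of the transcript, 52.1% of those of Ear1, 38.9% of those of Ear10, 33.3% of those of Ear2 and 0.674% of those of Ear6 also stood in a transcript of another gene, and 0% of those of Rnase2a did. The levels of Ear1, Ear2 and Ear10 are therefore uncertain on an absolute scale and were not ordered against each other as amounts of RNA. Each gene can still be compared with itself between classes and pools, which were counted in the same way.

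Of 10901 barcodes, 9862 cells remained after filters, from lanes and pools with 7897139 to 11459855 UMIs (unique molecular identifiers, each standing for a counted RNA molecule). Between 98.5% and 99.2% of hashtag UMIs in a lane and pool came from the hashtag of that treatment, and 0 barcodes were shared within or between lanes. Cells were placed in classes by markers that exclude the Ear genes, and 8910 cells were placed. Because the classes were rebuilt in this way, they may differ from those of the study. The classes that matter here were alveolar macrophages (5010 cells, gated on Siglecf, Marco, Krt79, Car4 and 4 further genes), other macrophages with complement C1q transcripts (1255 cells) and nonclassical monocytes (440 cells, gated on Ace, Treml4, Adgre4 and others). Cells near the boundary of their gate made up 218 of the alveolar macrophages, 180 of the C1q macrophages, 77 of the nonclassical monocytes and 572 of the 1072 DCs. B cells (563) and T or NK cells (214), which should lack the Ear genes, served as the measure of free RNA. Transcripts that define eosinophils were at or near 0 in all cells together, with 0 UMIs of Epx, 2 of Prg2, 7 of Ccr3 and 38 of Il5ra, and no cell was gated as an eosinophil.

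In all cells together 54105 UMIs were assigned to Ear2, 12874 to Ear1, 5423 to Rnase2a, 152 to Ear6 and 5 to Ear10. Reads that match several of the genes are not in these totals, which are therefore not ordered as amounts of RNA. Ear2 was found in all macrophage and monocyte classes, Ear1 almost wholly in alveolar macrophages, and Rnase2a in both macrophage classes of the pools that had received OVA. Ear6 was a rare transcript of alveolar macrophages, and Ear10 was at 4 UMIs in 5010 alveolar macrophages, a level of 0.147 CPM (the UMIs of a gene per 1000000 UMIs of the class).

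Ear2 stood at 1629 CPM in alveolar macrophages of the control pool, 1664 CPM in those of the asthma pool and 1951 CPM in those of the tolerance pool. In nonclassical monocytes it was at 539.6, 507 and 457 CPM, and in C1q macrophages at 355, 703 and 321 CPM, in the same order of pools. The alveolar macrophages were above both other classes in every pool, with means over the pools of 1748 CPM ± 177 (SD, n = 3 pools), 501 CPM ± 41.4 and 459.7 CPM ± 211. In the edgeR quasi-likelihood test on UMIs summed per class and pool, with the pool as a block and Benjamini-Hochberg adjustment, Ear2 was higher in alveolar macrophages than in nonclassical monocytes by 1.82 on the log2 scale (SE 0.34, adjusted p = 7.03e-05). Against C1q macrophages its edgeR log2 difference was 1.95 (SE 0.34, adjusted p = 3.09e-05). Nonclassical monocytes and C1q macrophages were not told apart in Ear2 by the test, with an edgeR log2 difference of 0.13 (SE 0.34, adjusted p = 0.828), which does not show that their levels were alike. With the level of each gene in B cells subtracted, the Ear2 differences of alveolar macrophages were 1.44 and 1.73 and no longer passed (edgeR adjusted p = 0.285 and 0.255). The subtraction took away the whole B cell profile, with the genes that B cells express themselves. It was therefore not a measure of free RNA alone. Far fewer of all tested genes were called under this subtraction too (counts in the closing section), so the loss was not particular to Ear2. Its cause was not tested.

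Ear1 stood at 679.6 CPM in alveolar macrophages of the control pool, 279 CPM in the asthma pool and 252 CPM in the tolerance pool. In nonclassical monocytes it was at 9.36, 12.0 and 1.79 CPM, from 13 UMIs in all, and in C1q macrophages at 13.5, 7.80 and 7.29 CPM. The value of control C1q macrophages came from 6 UMIs in 1 cell. The lowest alveolar macrophage pool was thus far above the highest pool of these classes. The edgeR log2 difference of alveolar macrophages was 5.44 against nonclassical monocytes (SE 0.31, adjusted p = 1.61e-13) and 5.16 against C1q macrophages (SE 0.24, adjusted p = 4.37e-15). Between nonclassical monocytes and C1q macrophages Ear1 differed by -0.28 (SE 0.49, edgeR adjusted p = 0.734). A pair of genes that share nearly all of the 250 bases before their starts were therefore measured with different breadth across the same cells.

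Rnase2a, named for the RNase 2 branch of the family, was seen almost wholly in the pools that had received OVA. In C1q macrophages it was listed at 0 UMIs in the control pool (444625 UMIs in all, which allows a level of up to 6.75 CPM), at 514 CPM in the asthma pool and at 235 CPM in the tolerance pool. In alveolar macrophages it was at 1.44, 136 and 225 CPM. In nonclassical monocytes it was at 0, 21.3 and 0 CPM, from 16 UMIs. Over the pools its edgeR log2 difference was 3.99 between alveolar macrophages and nonclassical monocytes (SE 0.56, adjusted p = 2.15e-06), -4.97 between nonclassical monocytes and C1q macrophages (SE 0.54, adjusted p = 1.34e-07) and -0.98 between alveolar and C1q macrophages (SE 0.34, adjusted p = 0.0245). The last of these rested on the asthma pool, because without it the difference was -0.09 (edgeR adjusted p = 0.941), and in the tolerance pool both macrophage classes stood at 225 and 235 CPM. Without the pool as a block, the differences of Rnase2a between alveolar macrophages and nonclassical monocytes (3.68, edgeR adjusted p = 0.0527) and C1q macrophages (-1.17, adjusted p = 0.391) did not pass, and neither did they in DESeq2 (3.92 and -0.87, adjusted p = 0.0662 and 0.738). With the level of B cells subtracted, the differences of Rnase2a were 4.14, -1.62 and, between nonclassical monocytes and C1q macrophages, -5.76, and none passed (edgeR adjusted p = 0.0957, 0.602 and 0.0545). As for Ear2, this came with a loss of calls over all tested genes.

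Ear6 and Ear10 did not pass the filter on low counts, so 3 of the 5 members entered these tests. All 3 were called between alveolar macrophages and nonclassical monocytes, where 43.5% of 7482 tested genes were called, and all 3 between alveolar and C1q macrophages, where 36.5% were. Between nonclassical monocytes and C1q macrophages 1 of 3 was called against 26.6% of all genes. These classes differ in a large part of the genes measured, so that the calls mark no exception and the sizes of the differences carry the description. With the pool as a block, the p-values measure how class differences varied between 3 pools, which differ in treatment. The variance was estimated over all 27 sums of the fit.

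**Figure D1:**
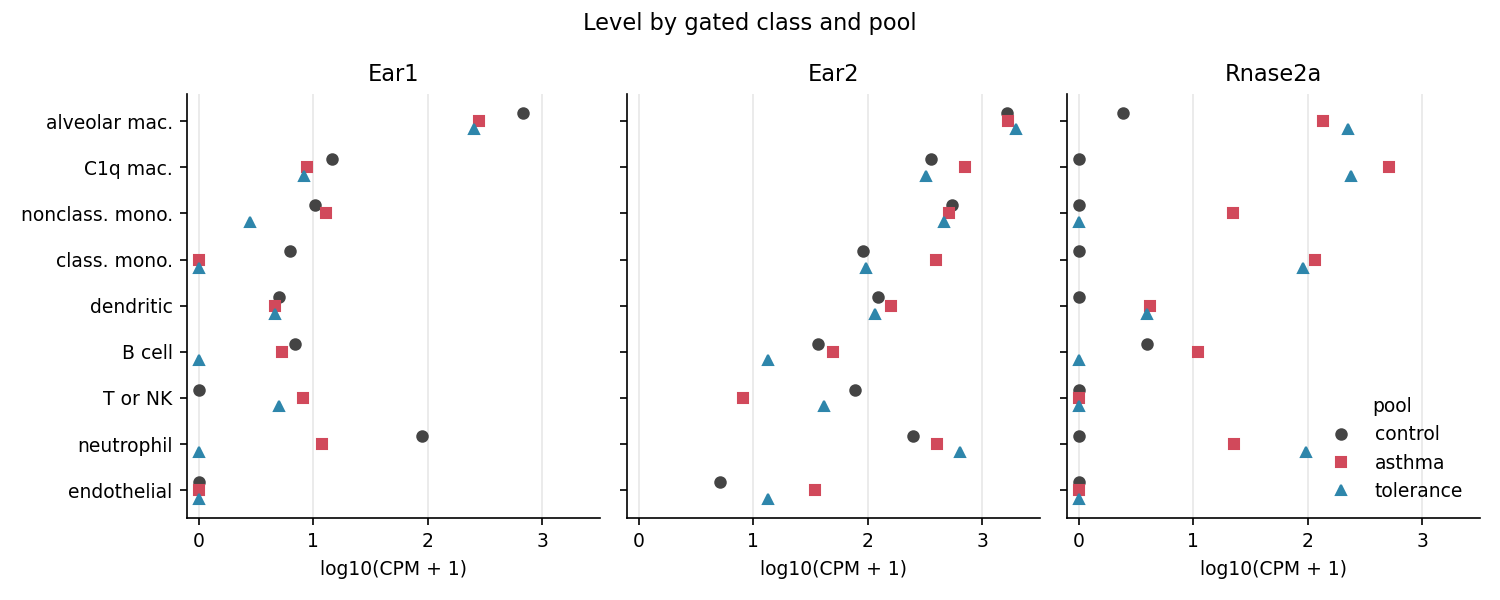
Levels of Ear1, Ear2 and Rnase2a in 9 marker-gated classes, as log10(CPM + 1) on the horizontal axis, with 1 point for each pool (lanes added). Ear1 is highest in alveolar macrophages, Ear2 is highest there with C1q macrophages and nonclassical monocytes below, and Rnase2a is highest in both macrophage classes of the asthma and tolerance pools, while points of neutrophils and classical monocytes rest on few UMIs.

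The cells of all treatments shared the lanes, so RNA set free from alveolar macrophages could reach every droplet. In B cells Ear2 stood at 35.4, 48.6 and 12.5 CPM in the control, asthma and tolerance pools, Ear1 at 5.90, 4.29 and 0 CPM and Rnase2a at 2.95, 10.0 and 0 CPM. In T or NK cells, over the 3 pools, Ear2 was at 33.5 CPM and Ear1 at 4.56 CPM. Rnase2a was there at 0 of 657673 UMIs, where 3 counts would be 4.56 CPM. The Rnase2a level of B cells rests on 8 UMIs in 3 cells, 6 of them in a single cell of the asthma pool. The Ear2 levels of the macrophage and monocyte classes were all above the highest B cell pool. Ear2 was higher than in B cells by 5.62 in alveolar macrophages (SE 0.45, edgeR adjusted p = 1.75e-11), 3.80 in nonclassical monocytes (SE 0.44, adjusted p = 8.67e-08) and 3.67 in C1q macrophages (SE 0.44, adjusted p = 8.14e-08) on the log2 scale.

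For Ear1 the picture outside alveolar macrophages was different. Ear1 was higher than in B cells by 6.53 in alveolar macrophages (SE 0.38, edgeR adjusted p = 8.33e-14), but by 1.09 in nonclassical monocytes (SE 0.78, adjusted p = 0.301) and by 1.37 in C1q macrophages (SE 0.65, adjusted p = 0.0845), neither of which passed. With suspected doublets kept, both differences changed sign, to -1.30 and -1.45 (edgeR adjusted p = 0.0468 and 0.00536). Without lane 2 the difference of C1q macrophages was 2.82 and passed (edgeR adjusted p = 0.0176), so the call for Ear1 outside alveolar macrophages depended on these choices. All 6 Ear1 UMIs of control C1q macrophages lay in 1 cell of lane 1. Rnase2a passed in alveolar macrophages (4.56, SE 0.65, edgeR adjusted p = 2.08e-06) and in C1q macrophages (5.54, SE 0.62, adjusted p = 8.38e-08), of which the first did not pass in DESeq2 (3.73, adjusted p = 0.067). Its log2 difference of 0.57 in nonclassical monocytes (SE 1.08, edgeR adjusted p = 0.734) did not pass. The shares of all tested genes called against B cells were 57.4% for alveolar macrophages, 35.7% for nonclassical monocytes and 48.5% for C1q macrophages.

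Free RNA from a single source keeps its genes in a fixed ratio, so the members were also set against Chil3, a chitinase-like lectin that was the most abundant of the yardstick genes of alveolar macrophages. Alveolar macrophages held 5.76 UMIs of Ear2 per 100 UMIs of Chil3 (exact 95% interval 5.71 to 5.82, counting error only). B cells held 15.6 (11.4 to 21.0) and T or NK cells 17.3 (10.5 to 27.4). C1q macrophages held 29.7 (28.6 to 30.8), DCs 113 (104 to 123) and nonclassical monocytes 132 (119 to 147). Chil3 itself was 3.61-fold higher in alveolar macrophages of the asthma pool and 4.30-fold higher in those of the tolerance pool than in control, so the alveolar ratio of Ear2 was 13.6 in the control pool and 3.86 and 3.80 in the others. The ratio in nonclassical monocytes was above that in B cells in each pool, at 72.7, 196 and 142 against 15.2, 20 and 6.41.

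For Ear1 the ratio in nonclassical monocytes was 2.12 per 100 UMIs of Chil3 (1.12 to 3.66), within counting error of the 1.59 (1.56 to 1.61) in alveolar macrophages and the 1.53 (0.493 to 3.60) in B cells. For Rnase2a it was 20.8 (19.9 to 21.7) in C1q macrophages, against 0.296 (0.285 to 0.309) in alveolar macrophages and 2.45 (1.05 to 4.88) in B cells. Rnase2a in nonclassical monocytes (2.61, 1.48 to 4.28) and DCs (2.21, 1.38 to 3.37) lay within the interval of B cells, which is wide because of their few UMIs. Classical monocytes held Chil3 at 2661 CPM, against 228 CPM in B cells, so the ratio does not serve as a measure of free RNA in that class. C1q macrophages also held Chil3 above B cells (edgeR log2 difference 2.43, SE 0.62, adjusted p = 0.00177). Their Ear2 and Rnase2a ratios carry the same limit.

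**Figure D2:**
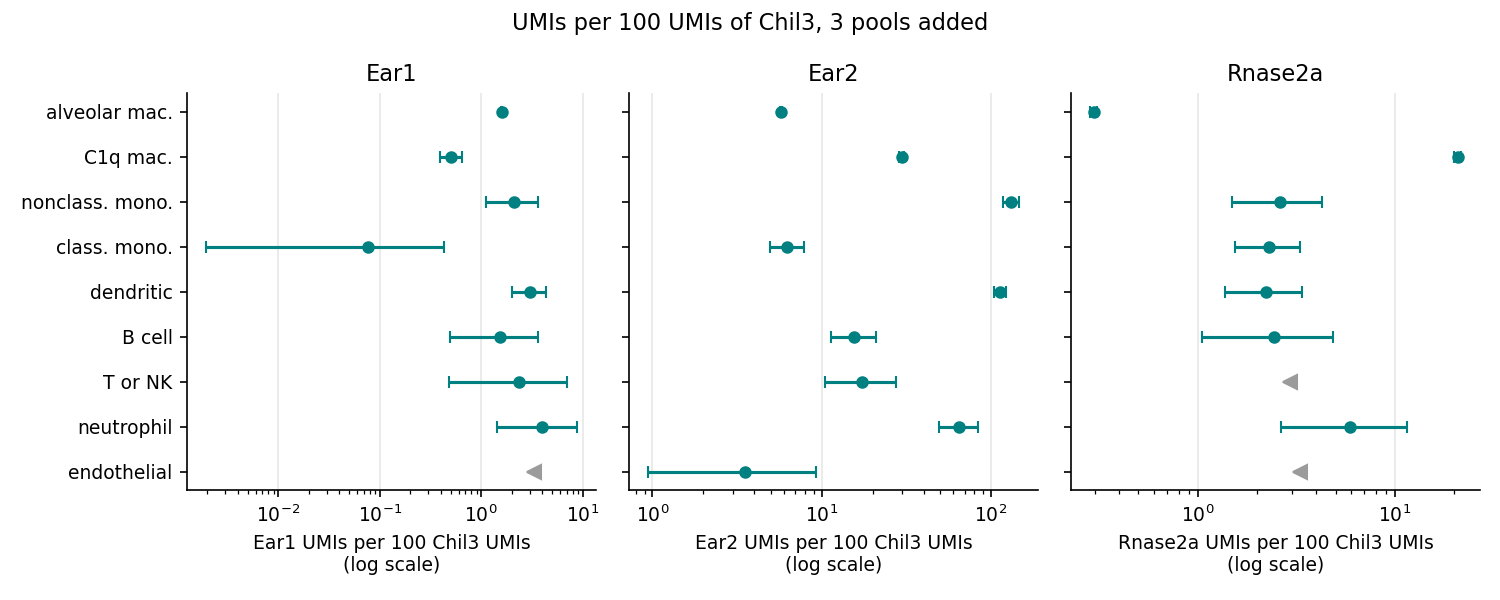
UMIs of Ear1, Ear2 and Rnase2a per 100 UMIs of Chil3 in each gated class (horizontal axis, log scale), 3 pools added, with exact 95% intervals for counting error. Grey triangles give the upper bound where the gene had 0 UMIs. The Ear2 ratios of nonclassical monocytes (132) and DCs (113) lie above those of B cells (15.6), and the Rnase2a ratio is highest in C1q macrophages (20.8), which held Chil3 above B cells.

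The share of cells with a UMI was also counted. Ear2 was seen in 97.4% of alveolar macrophages (95% Clopper-Pearson interval 96.9 to 97.8), 67.0% of nonclassical monocytes (62.4 to 71.4) and 45.9% of C1q macrophages (43.1 to 48.7), against 5.86% of B cells (4.07 to 8.13) and 5.14% of T or NK cells (2.59 to 9.01). Nonclassical monocytes had a median of 2402.5 UMIs per cell, closer to the 1876 of B cells than to the 5003 of alveolar macrophages. With each cell thinned to 1000 UMIs the shares with Ear2 were 75.2%, 39.5% and 25.8%, against 2.54% of B cells. Ear1 was seen in 69.1% of alveolar macrophages (67.8 to 70.4), and in 33.7% of them after thinning, against 2.95% of nonclassical monocytes, 3.98% of C1q macrophages and 0.888% of B cells without it. Rnase2a was seen in 28.4% of C1q macrophages (25.9 to 30.9) and 11.4% of alveolar macrophages (10.6 to 12.4), against 1.36% of nonclassical monocytes and 0.533% of B cells.

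The spread between cells of a class differed between members. In alveolar macrophages of the control pool the median cell held 15.3 Ear2 UMIs per 10000, with 5.04 at the 10th percentile (p10) and 32.5 at the 90th (p90), and the 10% of cells with most Ear2 held 24.8% of its UMIs. For Ear1 the median there was 5.44, the p10 was 0 and the top 10% of cells held 31.7% of its UMIs. In the asthma and tolerance pools the top 10% held 45.5% and 47.5% of Ear1, against 26.5% and 25.6% of Ear2. Rnase2a was concentrated in few cells, since the top 10% of alveolar macrophages held 88.0% of it in the asthma pool and 75.3% in the tolerance pool. Among C1q macrophages of the asthma pool a cell with Rnase2a held 8.06 of its UMIs on average and at most 61.

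In alveolar macrophages Ear1 was lower in both pools that had received OVA. Its level was 675 CPM in lane 1 and 684 CPM in lane 2 of the control pool, at 275 and 282 CPM in the asthma pool, and at 253 and 251 CPM in the tolerance pool. The lanes of a pool lay within 10 CPM of each other, and the control pool was far above the others in both. Against the control pool Ear1 was 2.44-fold lower in the asthma pool (ratio 0.41, 95% interval 0.392 to 0.429) and 2.70-fold lower in the tolerance pool (ratio 0.37, 0.349 to 0.392). The share of alveolar macrophages with an Ear1 UMI was 85.7% in the control pool, 52.6% in the asthma pool and 55.9% in the tolerance pool.

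Ear2 did not share this difference. The lanes gave 1673 and 1589.7 CPM for control, 1709.98 and 1619 CPM for asthma and 2005 and 1902 CPM for tolerance. The ratio to the control pool was 1.02 (1.00 to 1.04) in the asthma pool and 1.20 (1.17 to 1.23) in the tolerance pool. Ear2 was found in 98.5%, 95.9% and 97.4% of alveolar macrophages of the 3 pools.

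Rnase2a was near 0 in both lanes of the control pool, at 1.78 and 1.14 CPM, and stood at 145 and 127 CPM in the asthma pool and at 249 and 203 CPM in the tolerance pool. The 19 UMIs in the control pool lay in 19 cells, 1 in each, and their level was below the 2.95 CPM (1 UMI) in B cells of the same pool. The ratio to the control pool was 94.1 (60.0 to 157) in the asthma pool and 156 (99.6 to 260.3) in the tolerance pool. Ear6 was at 7.96 CPM in the control pool, from 105 UMIs, against 3.80 and 2.29 CPM in the asthma and tolerance pools, from 33 and 12 UMIs. Ear10 had 2, 1 and 1 UMIs.

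**Figure D3:**
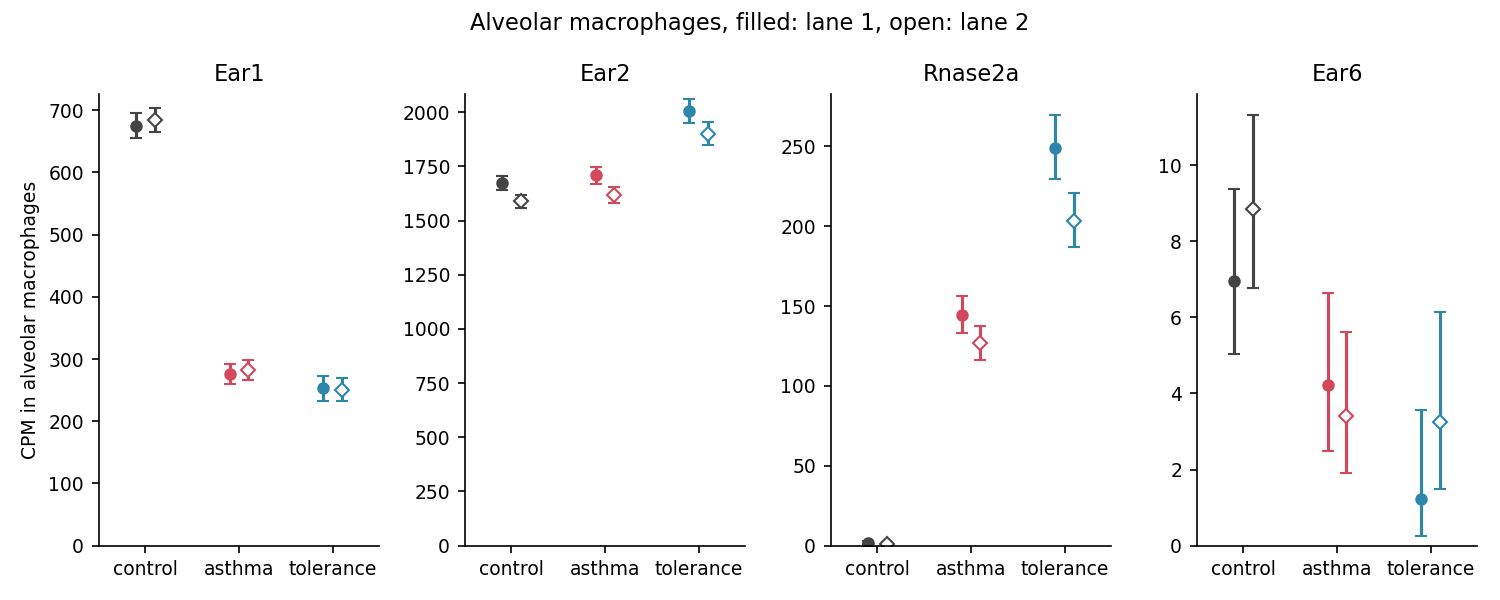
CPM of Ear1, Ear2, Rnase2a and Ear6 in alveolar macrophages of each pool, with lane 1 filled and lane 2 open, linear axes from 0 and exact Poisson 95% intervals for counting error. Ear1 is highest in the control pool (675 and 684 CPM), Ear2 lies between 1589.7 and 2005 CPM in all lanes, and Rnase2a is near 0 in the control pool only.

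The background of such differences was small. Of 9504 genes with at least 100 UMIs in alveolar macrophages, 4.02% differed at least 2-fold in both lanes between asthma and control and 5.24% between tolerance and control. Of the 4 members with that many UMIs, Rnase2a was past this limit upward in both comparisons, Ear1 downward in both, Ear6 downward in the tolerance comparison alone (log2 ratio -1.69, and -1.04 in the asthma pool), and Ear2 in neither. The Ear6 call rested on 1 control cell, which held 18 of the 62 Ear6 UMIs of its lane. Without this cell, left out after the data were seen, the log2 ratio was -1.43 over both lanes but -0.84 in lane 2, short of the limit. The comparisons share the control pool, so that they are not independent of each other. Between tolerance and asthma 0.431% of genes and 0 of the 4 members were past the limit, with log2 ratios of 0.73 for Rnase2a, 0.23 for Ear2, -0.15 for Ear1 and -0.66 for Ear6.

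The shares of the members in the UMIs assigned to the 5 genes differed between pools. Reads that match several of the genes are not counted, so these are not shares of RNA. Ear1 made up 29.3% of the UMIs of the 5 genes in control alveolar macrophages, 13.4% in the asthma pool and 10.4% in the tolerance pool. Rnase2a made up 0.0621%, 6.51% and 9.26%, and Ear2 70.3%, 79.9% and 80.3%. In C1q macrophages Ear2 held 96.3% in the control pool, and after OVA it shared the family with Rnase2a, at 57.4% and 42.0% in the asthma pool and 57.0% and 41.7% in the tolerance pool. In nonclassical monocytes Ear2 held 98.3%, 93.8% and 99.6%.

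**Figure D4:**
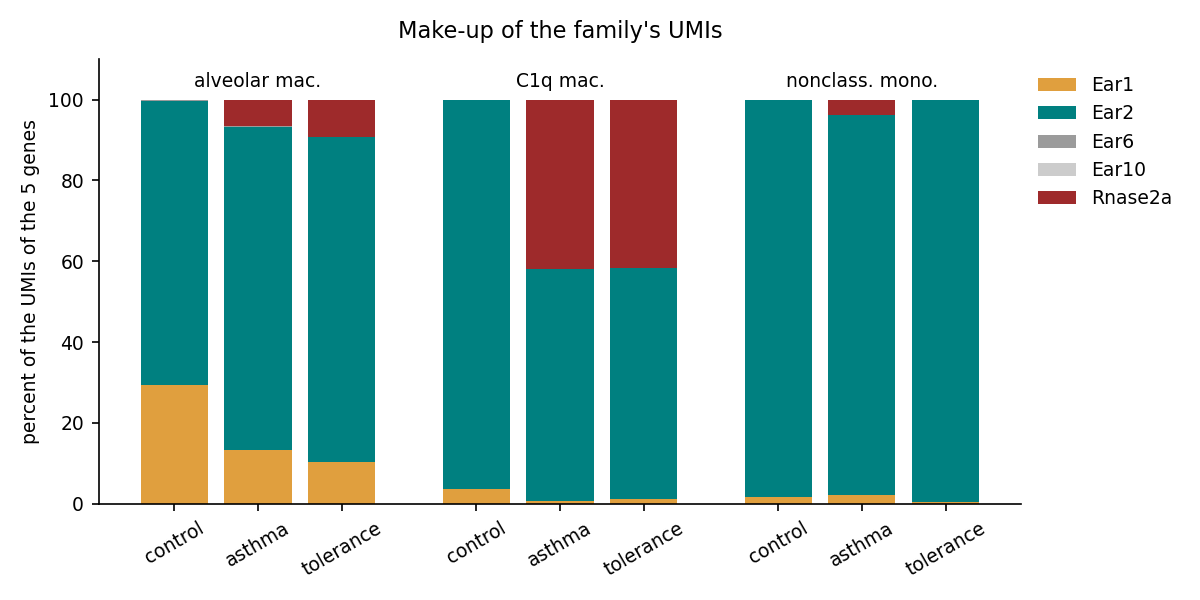
Share of each member in the UMIs assigned to the 5 genes, reads that match several genes not counted (vertical axis, percent) in alveolar macrophages, C1q macrophages and nonclassical monocytes of the 3 pools, lanes added. The Ear1 share of alveolar macrophages is 29.3% in the control pool and 13.4% and 10.4% in the others, and Rnase2a appears in both macrophage classes of the asthma and tolerance pools and at 3.95% in nonclassical monocytes of the asthma pool.

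In C1q macrophages the control pool held 85 cells, fewer than the 499 and 671 of the other pools. Rnase2a was at least 76.2-fold higher in the asthma pool and at least 34.8-fold higher in the tolerance pool than the limit that 0 UMIs allow in the control pool (3 counts over the pool). The share of cells with Rnase2a was 0 of 85, which allows up to 3.53%, against 37.7% (33.4 to 42.1) and 25.0% (21.8 to 28.5). For Ear2 the lanes gave 335 and 375 CPM in control, 721 and 686 CPM in asthma and 338 and 306 CPM in tolerance. Its ratio to the control pool was 1.98 (1.68 to 2.34) in the asthma pool and 0.903 (0.767 to 1.07) in the tolerance pool. Of the 2 members with at least 100 UMIs in this class, Rnase2a alone was past the 2-fold limit against control, where 4.54% of 7240 genes were in the asthma comparison and 4.1% in the tolerance comparison. Between tolerance and asthma, where 0.373% of genes were past it, both Ear2 and Rnase2a were, each 2.19-fold lower in the tolerance pool.

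In nonclassical monocytes the lanes gave 509.6 and 566 CPM of Ear2 for control, 573 and 466 CPM for asthma and 453 and 461 CPM for tolerance. The lanes of control and asthma overlapped, those of tolerance were below them, and the ratio to the control pool was 0.939 (0.783 to 1.13) for asthma and 0.848 (0.696 to 1.03) for tolerance, so that a difference was not detectable at this depth.

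Within alveolar macrophages Rnase2a and Ear1 were seldom seen in the same cell. After thinning to 1000 UMIs, Ear1 was seen in 5.47% of the 128 cells with Rnase2a in the asthma pool (2.23 to 10.9) and in 25.5% of the 1614 without it (23.4 to 27.7). In the tolerance pool it was seen in 9.62% of 104 cells with Rnase2a (4.71 to 17.0) and 22.2% of 743 without it (19.3 to 25.4). Ear2 was seen in 77.3% and 73.0% of these cells in the asthma pool and in 80.8% and 77.9% in the tolerance pool, close together within each pool. Fabp1, a fatty acid-binding protein gene of alveolar macrophages, went the way of Ear1, at 1.56% with Rnase2a and 13.9% without in the asthma pool and at 0% of 104 (upper bound 3.48%) and 9.29% in the tolerance pool.

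The cells with Rnase2a carried a median of 4 of the 8 alveolar macrophage markers, and those without it 5, in both pools. At least 2 C1q macrophage markers were seen in 8.59% of the cells with Rnase2a and 2.48% of those without it in the asthma pool, and in 3.85% and 2.69% in the tolerance pool. Clustering without the family placed 98.4% and 98.1% of the cells with Rnase2a with the alveolar macrophages. The part of this in the difference in Ear1 was not tested. In C1q macrophages of the asthma pool Ear2 was seen in 57.0% of 114 cells with Rnase2a (47.4 to 66.3) and 29.2% of 384 without it (24.7 to 34.0), and in the tolerance pool in 33.0% of 88 (23.3 to 43.8) and 17.0% of 577 (14.0 to 20.3).

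**Figure D5:**
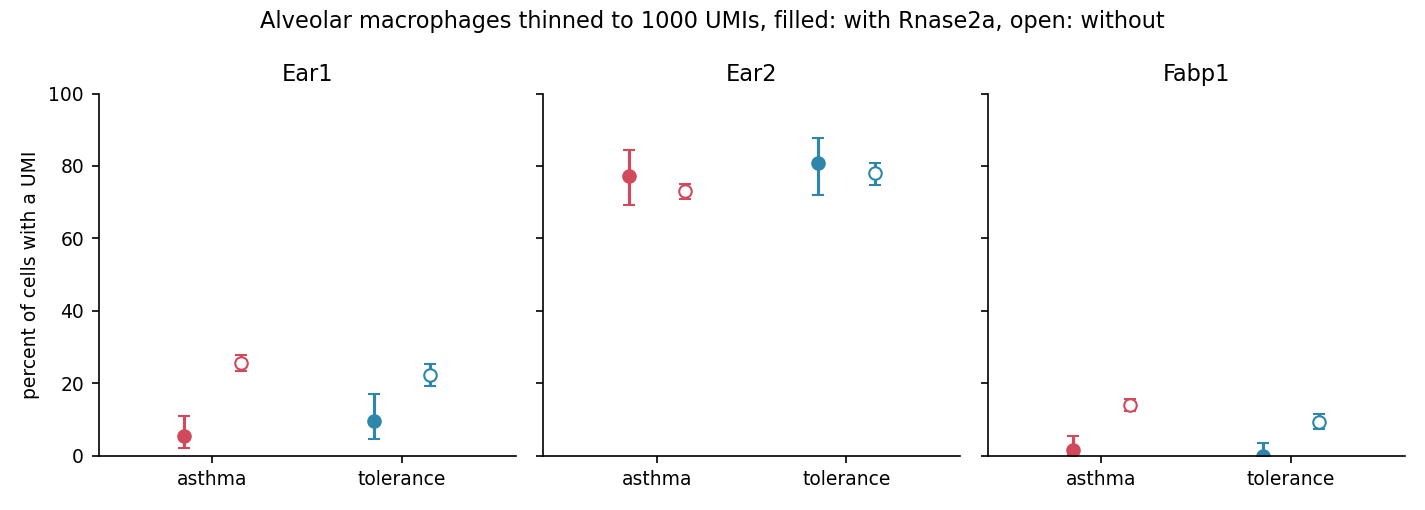
Share of alveolar macrophages, thinned to 1000 UMIs, with a UMI of Ear1, Ear2 or Fabp1 (vertical axis, percent of cells), split into cells with Rnase2a (filled) and without (open) in the asthma and tolerance pools, with 95% Clopper-Pearson intervals. Ear1 is at 5.47% with and 25.5% without Rnase2a in the asthma pool, while the Ear2 shares lie between 73.0% and 80.8%.

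The members were also measured in cells of distinct states. Among alveolar macrophages with at least 2 of 6 cycling genes, Ear1 was at 414 CPM in the control pool (108 cells), 235 CPM in the asthma pool (112 cells) and 229.97 CPM in the tolerance pool (76 cells), and Rnase2a at 0, 92.1 and 173 CPM. Ear2 was a lower share of UMIs in cycling cells than in cells neither cycling nor interferon-high in every pool. It was at 802 against 1692 CPM in control, 1099.6 against 1726 CPM in asthma and 1452 against 2046 CPM in tolerance. Cycling cells held more UMIs in all, with medians of 8087 against 4955.5, 5886 against 4342 and 7705.5 against 5405 in that order. The CPM values therefore do not give amounts per cell. Interferon-high alveolar macrophages, of which the control pool had 4, held Ear2 at 1647 CPM and Rnase2a at 134 CPM in the asthma pool, near the 1726 and 140.4 CPM of cells in neither state. In the tolerance pool they held Ear2 at 1915 against 2046 CPM and Rnase2a at 186 against 245 CPM. Ear1 was lower in them, at 222 against 295 CPM in asthma and 190 against 273 CPM in tolerance. Ear6 in the asthma pool was at 7.52 against 2.85 CPM, from 10 and 19 UMIs. The 10 UMIs lay in 2.30% of the 217 interferon-high cells, and 6 of them in a single cell. The higher Ear6 value therefore leans on that cell.

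DCs held little of the family apart from Ear2. It was at 121, 157 and 114 CPM in the DCs of the control, asthma and tolerance pools, above the B cells of each pool. Among DCs with Cd209a, a marker of cDC2, and without Xcr1 or Clec9a, Ear2 was at 241 CPM and in 42.9% of 457 cells (38.3 to 47.6). Among those with Xcr1 or Clec9a, markers of cDC1, it was at 45.8 CPM and in 16.4% of 280 cells (12.3 to 21.3), and in migratory DCs with Ccr7 and Fscn1 at 36.7 CPM and in 13.8% of 225 cells (9.56 to 19.0). Cd209a cells were the highest in each pool, at 267, 284 and 159.8 CPM, against 27.7, 37.8 and 65.5 CPM in Xcr1 or Clec9a cells and 40.9, 42.5 and 20.5 CPM in migratory DCs. Chil3 was at 108, 94.1 and 97.1 CPM in Cd209a cells of the 3 pools and at 199, 187 and 84.0 CPM in Xcr1 or Clec9a cells. Ear1 in DCs was at 3.69 CPM and Rnase2a at 2.70 CPM, near the 3.48 and 5.57 CPM of B cells.

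In 88 gated neutrophils Ear2 was at 439.9 CPM, but 14 cells held all 98 of its UMIs, with 7 in each on average and 22 at most, and the other cells held none. Their Ear1 and Rnase2a values rest on 6 and 9 UMIs. Classical monocytes (67 cells) held Ear2 at 89.5, 396 and 94.6 CPM in the 3 pools, and 31 of them lay near their gate. Rnase2a was at 0, 116 and 89.1 CPM in this class, from 0, 14 and 16 UMIs. These 30 UMIs lay in 7 cells, and the level over the pools was 61.1 CPM. In 201 endothelial cells Ear2 had 4 UMIs.

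Of a wider list of 22 genes of the RNase A family and its inhibitor, 16 were measured and 9 had a UMI, and 3 of these (Rnase4, Rnase6 and Rnh1) entered the class tests. Rnase6, an antimicrobial ribonuclease of phagocytes, ran opposite to Ear1, Ear2 and Rnase2a between alveolar macrophages (61.5 CPM) and nonclassical monocytes (267 CPM, edgeR log2 difference -2.11, SE 0.29, adjusted p = 8.08e-07). Between alveolar and C1q macrophages Rnase6 was not told apart (edgeR log2 difference -0.12, SE 0.30, adjusted p = 0.791). Rnase4 was lower in alveolar than in C1q macrophages by 0.57 on the log2 scale (48.3 against 74.3 CPM, SE 0.20, edgeR adjusted p = 0.0239). Rnase4 overlaps Ang in the genome, so reads of this pair may not be separated. Rnh1, the cytosolic inhibitor that binds and blocks RNase A enzymes, was at 376 CPM in alveolar macrophages and 231 CPM in nonclassical monocytes (edgeR log2 difference 0.73, SE 0.22, adjusted p = 0.00685). Against the control pool, 0 of the 5 listed genes with at least 100 UMIs were past the 2-fold limit in alveolar macrophages of the asthma pool, and 1 was in the tolerance pool, Rnase2b (log2 ratio 1.79, from 43 against 31 UMIs). The median log2 ratios of these 5 genes were -0.15 and 0.06, beside -0.10 and -0.12 over all 9504 genes.

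As a context for Rnase2a, 13 genes known to respond to interleukin 4 or 13 in macrophages were measured in the same cells. In alveolar macrophages 6 of the 13 were past the 2-fold limit upward in the asthma pool and 5 in the tolerance pool, with 0 downward, where 2.66% and 2.91% of all 9504 genes were past it upward, and medians of 1.49 and 1.16 on the log2 scale. Among them were Arg1 (arginase, log2 ratios 4.62 and 5.58), the chemokine genes Ccl17 (4.50 and 5.40) and Ccl24 (5.75 and 5.01) and the chitinase-like gene Chil4 (3.19 and 3.02). Rnase2a had larger ratios than each of these, at 6.48 and 7.21. In C1q macrophages 12 of the listed genes had at least 100 UMIs. Of these, 7 were past the limit upward in the asthma pool and 3 in the tolerance pool, with 0 downward. Among all 7240 genes of that class 2.09% and 1.92% were past it upward. The median log2 ratios of the 12 genes were 1.47 and 0.60.

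Over the 27 sums of class and pool with at least 10 cells, the genes whose log2(CPM + 1) ran most like a member were listed as a description. For Ear1 they were Krt19 (Pearson r = 0.92), Perp (0.88), Adam33 (0.86), Marco (0.86) and Alox5 (0.84), and Marco is a gene of the gate. For Ear2 they were Cd44 (0.94), Itgax (0.91), Iqgap1 (0.88), Gk (0.87) and Creg1 (0.87), and Itgax encodes CD11c, an antigen stained for the sort. For Ear6 they were Lix1 (0.99), Pdk4 (0.99), Cdc42ep5 (0.92), Gm17103 (0.89) and C530008M17Rik (0.86). The highest Ear6 level among the sums was 12.4 CPM in endothelial cells of the tolerance pool, from 1 UMI in 47 cells. It lay above the 7.96 CPM of control alveolar macrophages, from 105 UMIs, so the Ear6 list leans on that single UMI. For Rnase2a the correlations were lower, with Fam20c (0.78), Sphk1 (0.78), Atp5l (0.77), Cox8a (0.76) and Cstb (0.76), and Ear10 had too few UMIs for such a list. The correlation of Ear1 with Ear2 was 0.63, of Rnase2a with Ear2 0.57 and of Rnase2a with Ear1 0.20. These sums share pools and lanes and differ in depth from 57232 to 13197337 UMIs.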

How the data were processed

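The deposited UMI counts were made by the authors by aligning reads to mm10 (STAR, within Cell Ranger 3.1.0), and barcodes were assigned to treatments by hashtags with Seurat 3.1.5. Counts were used unscaled. After removal of barcodes above 20% mitochondrial or 20000 total UMIs, and of those below 500 genes, 10088 of 10901 remained. Scrublet's automatic threshold marked 0.0585% and 0.141% of cells, so the top 2% of scores per lane were removed (118 and 108).

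A cell took the class with the largest share of its markers detected, with at least 2 markers, and ties stayed ungated (952 cells). Counts were summed per class and pool with at least 10 cells (27 sums) and tested with edgeR 4.0.16 in R 4.3.3 (TMM, quasi-likelihood, pool block, 16 residual degrees of freedom, common dispersion 0.0233, Benjamini-Hochberg adjustment at 0.05). DESeq2 1.42.0 was an alternative. Simulated counts with 200 changed genes were used to test the script. Treatment log2 ratios added 1 count and required 100 UMIs. Intervals are exact Poisson or Clopper-Pearson at 95%, and 3 counts stand for the limit of 0. Thinning and figures used Python 3.11.15, numpy 2.4.6 and matplotlib 3.10.9, and alignments Biopython 1.88.

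The members and gene lists were chosen with earlier results of these data known, the gate's thresholds after the files were seen, and all 5 members, the listed genes and the 5 most alike genes were to be named, of which some listed genes are given by counts alone. Those named from the wider lists, and the values singled out by cell state, were picked after they were seen.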

Additional observations from a re-analysis of the deposited data

Results flagged for a closer look

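The tolerance to control ratio of Ear2 had opposite signs in the macrophage classes. Its log2 ratio was 0.26 in alveolar macrophages and -0.16 in C1q macrophages, with the lanes added. In lane 1 of the C1q macrophages the levels were 335 CPM in control and 338 CPM in tolerance, and the log2 ratio of -0.01 there was below 0 through the added count alone, so that only lane 2 (-0.31) was lower. The difference between the classes was not tested, since each treatment rests on 1 pool. The control pool held 85 C1q macrophages with 158 UMIs of Ear2, and the interval of the ratio there, 0.767 to 1.07, includes a ratio of 1.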

How the results depend on the processing

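Of the values of members between classes under the alternatives, 209 kept their direction and their side of the threshold, 13 changed sign, 11 no longer passed and 1 newly passed. With each class lowered by the level of B cells, Ear2 differed by 1.44 between alveolar macrophages and nonclassical monocytes and by 1.73 from C1q macrophages, and Rnase2a by 4.14, -1.62 and, between nonclassical monocytes and C1q macrophages, -5.76, none of which passed. DESeq2 gave Rnase2a 3.92 and -0.87 for the same alveolar comparisons and 3.73 against B cells, none passing, and -0.19 between nonclassical monocytes and B cells. Without the replicate block (the pool), Rnase2a gave 3.68 and -1.17 in the alveolar comparisons, and no other call changed. With doublets kept, Ear1 gave -1.30 and -1.45 for nonclassical monocytes and C1q macrophages against B cells and 0.16 between them, and Rnase2a -0.20 between nonclassical monocytes and B cells. With at least 1200 genes per cell, Ear1 gave 0.049 between nonclassical monocytes and C1q macrophages and Rnase2a -0.077 between nonclassical monocytes and B cells, which was -0.64 in clusters. The causes were not tested.

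Leaving out each pool or lane, Ear1 ranged from -1.23 to 0.34 between nonclassical monocytes and C1q macrophages and from 0.46 to 2.82 between C1q macrophages and B cells, the latter without lane 2, where it passed. Ear2 ranged from -0.030 (without the control pool) to 0.52 between nonclassical monocytes and C1q macrophages. Rnase2a ranged from -1.83 to -0.086 between alveolar and C1q macrophages and from -4.74 (without the asthma pool) to 1.72 between nonclassical monocytes and B cells, with -0.15 without lane 2. Ear1 between nonclassical monocytes and C1q macrophages was 0.17 without the tolerance pool and 0.34 without lane 1.

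Of 86 values of members between treatments 4 moved, all with TMM factors, under which the alveolar log2 ratios to control were -1.18 and -1.30 for Ear1 and 0.13 and 0.39 for Ear2 in the asthma and tolerance pools. Leaving out the control cell with most Ear6 UMIs, added after the data were seen, gave -1.43 for Ear6 in tolerance. Of 18 shares of cells 12 moved, 9 by thinning and 3 with the stricter gate (70.5% Ear1 and 98.0% Ear2 in alveolar macrophages, 71.6% Ear2 in nonclassical monocytes). Of 18 family shares 6 moved between single lanes, to 28.6% and 29.9% for Ear1 and 69.6% and 71.0% for Ear2 in control and 8.62% and 9.93% for Rnase2a in tolerance. Genes called between alveolar macrophages and nonclassical monocytes were 3258, and 1295 with the level of B cells subtracted or 2048 without the asthma pool. Against C1q macrophages they were 2732, and 737 with the level of B cells subtracted, 1621 without the asthma pool or 1713 without the tolerance pool. Between nonclassical monocytes and C1q macrophages they were 1988, and 461, 931 and 1032 in the same order. Nonclassical monocytes against B cells had 2669, and 1732 with 1200 genes per cell, 1581 without the asthma pool or 1755 without the tolerance pool, and C1q macrophages against B cells had 3628, and 2325 without the asthma pool. Depth limits Ear6, Ear10 and the 85 C1q macrophages of the control pool.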
